A study of Mus musculus with 2 samples.

Results

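Apoe, Ckb, Glul and Ptms are 4 of the 27998 genes counted in single mouse embryonic stem cells, and were selected on their values in these libraries: a total level that differed little between the treatments, and a spread between cells that was more than 2-fold larger in the treated cells. The E14 line is a male stem cell line. Per the labels it was kept without feeder cells on gelatin in ESGRO-2i medium, and both groups were in 2i/LIF, which is medium with inhibitors of MEK and GSK3 and with the cytokine LIF. The control group was given DMSO, the solvent, for 24 h, and the other group was given Idoxuridine for 24 h. The treatment label gives a dose of 10 µM, whereas the treatment protocol gives 10 mM, and both are reported here as written. The strain label of both samples is C57BL/6. There was 1 library per group, so the 2 groups are 1 culture each of 1 cell line, no test between them was possible, and every interval covers counting error only.

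Apolipoprotein E, the product of Apoe, is secreted on lipoprotein particles and carries cholesterol and other lipids between cells by way of lipoprotein receptors on their surface. Ckb encodes the cytosolic brain type of creatine kinase, which moves phosphate between ATP and creatine. Glul encodes glutamine synthetase, the enzyme that joins ammonia to glutamate. Ptms encodes parathymosin, a small, highly acidic nuclear protein related to prothymosin alpha. These genes belong to no common pathway. Idoxuridine is a thymidine analogue with an iodine atom that is built into new DNA in place of thymidine. In 2i medium, embryonic stem cells are held near the naive state of the early embryo, in which transcription factors such as Nanog, Klf4 and Zfp42 are expressed.

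The DMSO library held 811 cells with 40818344 unique molecular identifiers (UMIs, 1 per captured transcript), and the Idoxuridine library held 742 cells with 30454626. The median cell had 44502 UMIs in DMSO and 37425 in Idoxuridine, so spread was measured after every cell had been thinned to a common depth, with 764 and 648 cells deep enough. That depth was the 10th percentile of UMIs per cell in both libraries pooled (23968), taken down to a multiple of 500. The libraries shared 2 barcodes. The 12 embryonic stem cell markers summed to 7630 CPM (UMIs of a gene per 1000000 UMIs of the library) in DMSO and 5389 in Idoxuridine, with each marker above 0 in both. Of 8 fibroblast markers, summing to 1.40 and 12.4 CPM, 3 were at 0 in DMSO (Col1a1, Col3a1 and Postn) and 1 in Idoxuridine (Postn). The other marker sums in DMSO and Idoxuridine were 14.9 and 41.4 CPM for 11 primitive endoderm genes, none of them at 0. They were 152 and 251 CPM for 9 trophectoderm genes, none of them at 0. They were 151 and 224 CPM for 11 neural and glial genes, most of it Tubb3 at 127 and 191 CPM, with 3 of the 11 at 0 in DMSO and 2 in Idoxuridine.

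The starts of the 4 genes are shown because none of 3 common promoter motifs occurs in all of the windows shown. Apoe had 3 promoter windows in RefSeq, and only that nearest its GENCODE start was searched for the motifs here. The RefSeq start of Ptms lies 2157 bases inside the gene as GENCODE draws it, so its window is within the Ptms gene and overlaps the antisense gene named below, whereas the other 3 starts are 0 to 15 bases from the GENCODE ones. Each line gives the 100 bases before the RefSeq start site on build GRCm38.p6, 5′ to 3′ on the gene's strand, and capitals mark every match, on either strand, to 1 of these motifs: the TATA box TATAAA, the box CCAAT bound by factors such as NF-Y, and the GC box GGGCGG.
Apoe, chr7:19699189-19699288, minus strand: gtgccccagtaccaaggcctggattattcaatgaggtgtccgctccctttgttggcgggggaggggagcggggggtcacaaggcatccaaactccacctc
Ckb, chr12:111672339-111672438, minus strand: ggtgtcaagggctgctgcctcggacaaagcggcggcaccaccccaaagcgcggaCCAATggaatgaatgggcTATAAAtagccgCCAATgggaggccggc
Glul, chr1:153899829-153899928, plus strand: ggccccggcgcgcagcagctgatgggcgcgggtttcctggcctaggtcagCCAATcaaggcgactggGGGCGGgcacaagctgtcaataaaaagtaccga
Ptms, chr6:124917947-124918046, minus strand: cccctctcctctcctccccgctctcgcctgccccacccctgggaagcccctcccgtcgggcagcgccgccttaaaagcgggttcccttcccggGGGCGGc

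The Ckb window held 1 TATAAA, beginning 28 bases before the start, between 2 matches to CCAAT that began 46 and 16 bases before it. The Glul window held 1 CCAAT at 50 bases and 1 GGGCGG at 33 bases, the Ptms window held 1 GGGCGG at 7 bases, and none of these letters was found in the Apoe window. Among all 32851 RefSeq windows of this length, 5.56% held TATAAA, 18.9% CCAAT and 24.7% GGGCGG. All 4 members and 5935 of the 7316 genes measured for spread were matched to a window. The median log2 ratio of the spread measure defined below, the Fano factor, was 0.11 over the 154 matched genes with TATAAA and 0.08 over those without. Here a gene counted as having the motif if any of its windows held it. Of the 36 genes with a 2-fold higher Fano factor, 26 (72.2%) were matched, under the 80% needed, so the motifs were not compared between them and the rest.

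All 4 are protein-coding genes on GRCm38 (GENCODE M21). Apoe (ENSMUSG00000002985) lies on chromosome 7 at 19696109-19699188, and Ckb (ENSMUSG00000001270) on chromosome 12 at 111669361-111672338, each overlapping no other annotated gene. Glul (ENSMUSG00000026473) lies on chromosome 1 at 153899944-153909723 and overlaps 285 bases of Teddm2, on the other strand, and 93 bases of the microRNA gene Mir8114, on its own strand, both at its 5′ end. Ptms (ENSMUSG00000030122) lies on chromosome 6 at 124913681-124920103, and the antisense gene A230083G16Rik overlaps 3241 bases of it. Whether counting used strand was not given in the sources used here, and reads of Ptms and of this antisense gene, or of Glul and the genes at its 5′ end, may not have been kept apart.

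Total levels differed little between the libraries. The level of Apoe in DMSO was 2270.5 CPM, with a 95% Poisson interval of 2256 to 2285, and with Idoxuridine it was 2048 CPM (2032 to 2064.5). The log2 ratio was -0.15. Ckb was at 1693 and 1565 CPM, a log2 ratio of -0.11. Both were slightly lower in Idoxuridine, by more than counting error. Glul was measured at 104 CPM (101 to 107) without Idoxuridine and at 134 CPM (130 to 139) with it, which is 0.37 on the log2 scale. Ptms was at 353 and 424 CPM, a log2 ratio of 0.26. Both were somewhat higher in Idoxuridine. None of the 4 reached 0.5 log2, which is largely fixed by their choice for a level that differed little. Of the 10380 genes with at least 200 UMIs, 23.0% did so with separate intervals, 1947 higher (18.8%) and 436 lower (4.20%). With trimmed-mean (TMM) scaling, which moves every log2 ratio by -0.21, that split was 1259 to 1262. With median-of-ratios scaling, which moves every ratio by -0.09 and so puts the median gene at 0, it was 1593 to 669. Relative to the median gene, the log2 ratios were -0.24 for Apoe, -0.20 for Ckb, 0.28 for Glul and 0.17 for Ptms.

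Apoe and Ckb were among the most abundant transcripts, with ranks 50 and 73 by DMSO mean among the 7316 genes with at least 0.25 UMI per cell at the common depth. Ptms ranked 494 and Glul 1810. Glul, at 2.50 UMIs per cell in DMSO, was thus not an abundant transcript in these cells. Each transcript is counted once at its 3′ end, so these levels carry no gene length.

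The spread values, which chose the members, are given as a description. The Fano factor is the variance over the mean of UMIs per cell, and a gene that varies by counting error only has a value of 1. For Apoe the mean at common depth was 53.6 UMIs per cell in DMSO and 47.8 in Idoxuridine, with Fano factors of 6.34 and 16.0, a log2 ratio of 1.34. For Ckb the means were 40.2 and 37.6, and the Fano factors 4.53 and 11.0, a log2 ratio of 1.28. A Fano factor grows with the mean, so it is not compared between genes of unlike level. The Ptms mean was 8.13 and then 9.92, and its Fano factor 1.60 and then 3.95 (log2 ratio 1.30). The Glul mean was 2.50 and then 3.25, and its Fano factor 1.51 and then 3.57 (log2 ratio 1.24).

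With the counting part taken out, the coefficient of variation was 31.6% in DMSO and 56.1% in Idoxuridine for Apoe. It was 29.6% and 51.6% for Ckb, 45.3% and 88.9% for Glul, and 27.3% and 54.6% for Ptms. Glul, the least abundant of the 4, thus had the largest relative spread in both libraries. The squared coefficient was 3.16-fold, 3.03-fold, 3.86-fold and 4.01-fold larger, although the DMSO means ranged from 2.50 to 53.6 UMIs per cell. No value of the squared coefficient over all genes is given here. For the Fano factor, the median log2 ratio over all 7316 genes was 0.08. It was at least 2-fold higher for 36 of them (0.492%), and for 6 (1.81%) of the 332 genes with at least 10 UMIs per cell in both libraries. Since this contrast chose the 4 genes, nothing is read from their count against these shares.

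Among the 6272 genes of similar level (under 0.5 log2, mitochondrially encoded and ribosomal protein genes left out), the 4 held ranks 5 to 8 of the log2 Fano ratio. Just above them stood Sat1, Lgals3, Nr0b1 and Mest at 1.83, 1.59, 1.41 and 1.38, and just below stood Meg3 at 1.13 and Zfp42 at 1.12. Mest, an imprinted gene, had 3.60 and 4.73 UMIs per cell, and Zfp42, a marker of naive cells, had 22.0 and 16.7. Both lay within the wide range of levels of the 4 genes, as did Sat1 and Meg3.

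**Figure D1:**
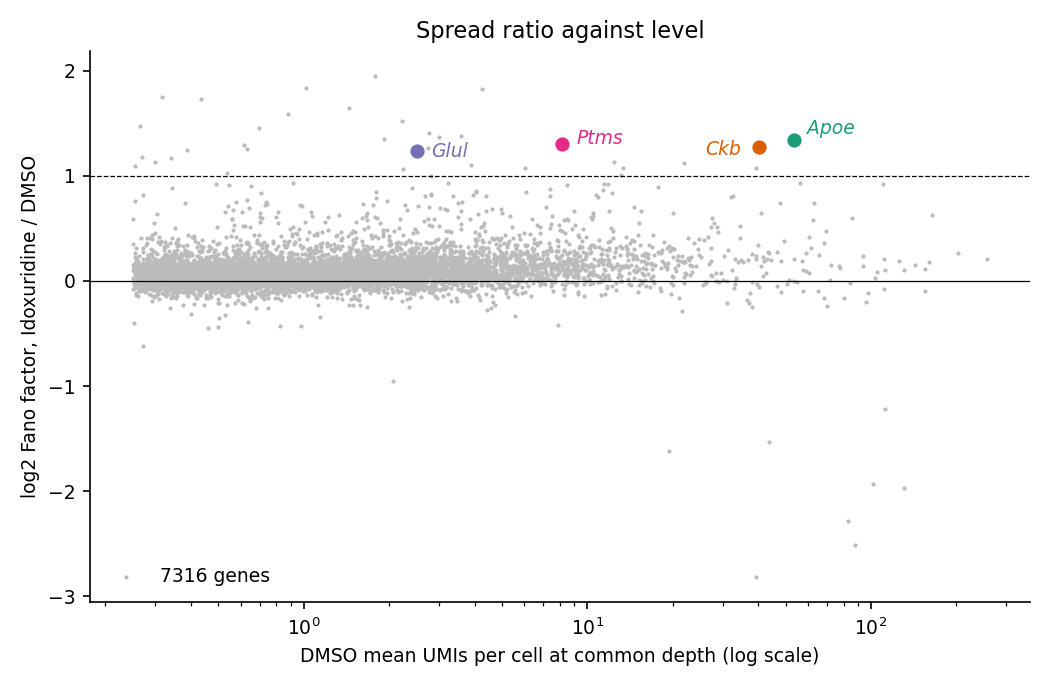
Each point is 1 of 7316 genes: the x axis is its mean UMIs per DMSO cell at the common depth (log scale) and the y axis the log2 ratio of its Fano factor, Idoxuridine over DMSO, with a solid line at 0 and a dashed line at 1. The 4 coloured genes lie at 1.24 to 1.34, and most others near the median of 0.08.

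Each of the genes nearest in DMSO level had a smaller ratio than its member. The members were chosen for a large ratio, so this is largely fixed by the choice and is given as a description. The 5 neighbours of Glul (Agk, Gtf2h1, Diaph1, Rala and Mrpl20) had log2 Fano ratios of 0.06 to 0.22, and those of Ptms (Stoml2, Nop58, Nfu1, Atp5d and Phb) of -0.03 to 0.48. For Ckb the neighbours Fkbp4, Asns and Eef2 were at 0.21 to 0.23, the histone gene H3f3b was at 0.64, and the mitochondrial ADP/ATP carrier gene Slc25a5 was at 1.07. For Apoe the neighbours Serbp1, Atp5b, Tuba1b and Actg1 were at -0.09 to 0.19, and the nuclear RNA Malat1 was at 0.93. Malat1, however, was also higher in level, at a mean of 56.1 UMIs without and 102 with Idoxuridine.

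The per-cell distributions, from 1 seeded thinning, differed in shape between the 4 genes. In DMSO the Apoe counts were 10 in the lowest cell, 51 in the median cell and 175 in the highest, with the 5th and 95th percentiles at 28 and 88.85. In Idoxuridine they were 5, 42 and 223, with the 5th and 95th percentiles at 16 and 102. The distribution thus reached further in both directions, and the cells of the 2 libraries overlapped over most of the range. Of the Idoxuridine cells, 21.1% (137 of 648, Clopper-Pearson 95% interval 18.1 to 24.5%) were below the DMSO 5th percentile, where 4.19% of the DMSO cells were. Above the DMSO 95th percentile were 8.02% of them (6.05 to 10.4%), where 5.10% of the DMSO cells were. The larger excess was therefore on the low side for Apoe. Over the 332 genes of at least 10 UMIs per cell, many of which differed in level, the median gene had 5.79% of Idoxuridine cells below and 4.48% above these limits, and the 95th percentiles over genes were 22.6% and 25.9%. The Apoe shares lay inside that range.

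Ckb had 7, 39 and 98 UMIs in the lowest, median and highest DMSO cell, and 6, 34 and 244 in the Idoxuridine cells. The middle of the distribution widened little in UMIs, with the 25th and 75th percentiles at 32 and 48 in DMSO and at 26 and 44 in Idoxuridine. These spans of 16 and 18 UMIs lay around medians of 39 and 34, so relative to the median the middle widened more. Below the DMSO 5th percentile were 9.57% of the Idoxuridine cells (7.41 to 12.1%) and 5.10% of the DMSO cells, and above the 95th 7.10% (5.24 to 9.36%) and 4.84%. For Ckb, as for Apoe, more of the Idoxuridine cells were therefore on the low side. The upper end reached much further: 9 Idoxuridine cells and 0 of 764 DMSO cells, which allows up to 0.393%, had over 100 UMIs. The 3 highest Idoxuridine cells held 244, 209 and 146 UMIs, against 98, 89 and 86 in DMSO. Skewness, which is 0 for a symmetric distribution, was 0.49 in DMSO and 3.62 in Idoxuridine for Ckb. It was 1.08 and 1.69 for Apoe, and the median over the 332 genes of at least 10 UMIs was 0.42 and 0.48.

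Ptms, with 0, 8 and 22 UMIs in the lowest, median and highest DMSO cell and 0, 9 and 62 in the Idoxuridine cells, differed on the high side. Above the DMSO 95th percentile of 15 UMIs were 11.6% of the Idoxuridine cells (9.21 to 14.3%) and 2.75% of the DMSO cells. Below the 5th percentile of 3 UMIs were 2.93% and 3.40%. The low-end shares of Ptms differed by less than counting error. The 2 high-end shares of Ptms and Glul, both of them genes under 10 UMIs per cell, lay inside the range given above for abundant genes. Glul had 2 UMIs in the median cell of both libraries, and at most 21 in DMSO and 37 in Idoxuridine. Above the DMSO 95th percentile of 6 UMIs were 11.7% of the Idoxuridine cells (9.35 to 14.5%) and 2.88% of the DMSO cells. No UMI of Glul was found in 13.6% (11.0 to 16.5%) of the Idoxuridine cells and 10.7% (8.63 to 13.1%) of the DMSO cells, so for Glul the low end overlapped within counting error.

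**Figure D2:**
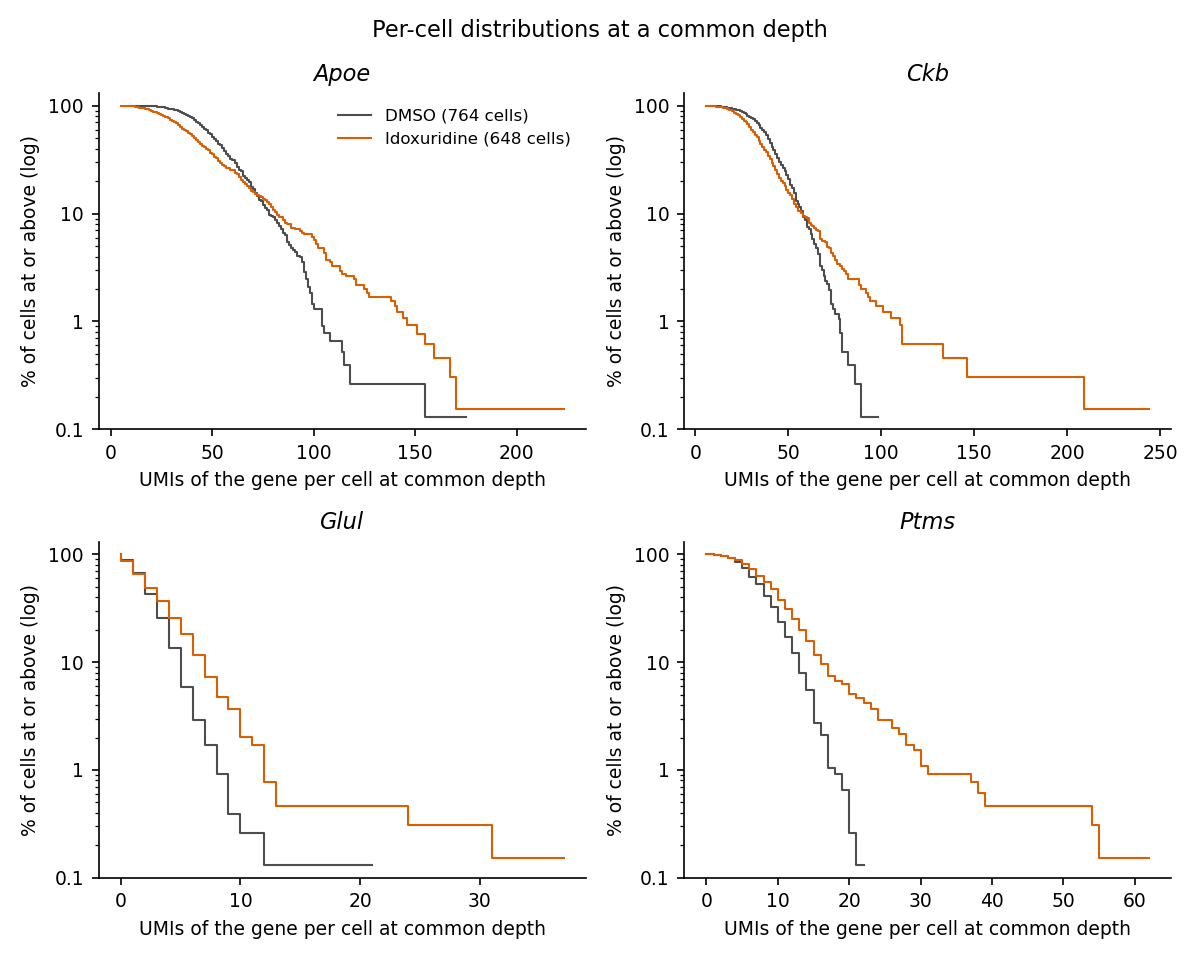
For each gene, the y axis (log scale) is the percentage of cells with at least the number of UMIs on the x axis, after thinning to the common depth, for 764 DMSO cells (grey) and 648 Idoxuridine cells (orange). For Apoe and Ckb the orange curve starts below the grey one and crosses it, whereas the Ptms curve is higher over nearly the whole range, and the steps at the far right are single cells, such as the Ckb cells at 209 and 244 UMIs.

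How far the gain rested on few cells differed between the genes. The 6 highest Idoxuridine cells (1%) carried 39.0% of the squared deviation from the mean for Ckb, 37.8% for Glul, 33.9% for Ptms and 19.1% for Apoe. The 8 highest DMSO cells carried 11.0%, 24.0%, 11.3% and 16.4%. When the highest 5% of cells were left out in both libraries, the log2 Fano ratio of Apoe went from 1.27 to 1.05 and that of Glul from 1.15 to 0.80. The ratio of Ptms went from 1.31 to 0.57 and that of Ckb from 1.27 to 0.42. Without the highest 10%, Apoe was at 0.96 and Ckb at 0.23, near the median of 0.15 over the 332 genes treated in the same way. On the log ratio, Ckb thus came close to the median gene and Apoe did not. The Fano factors of Apoe themselves went from 6.60 and 15.9 to 3.73 and 7.27. Those of Ckb went from 4.53 and 11.0 to 2.95 and 3.47. Leaving out the highest cells lowers the Fano factor in DMSO too, so these smaller differences alone do not place the gain in those cells.

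**Figure D3:**
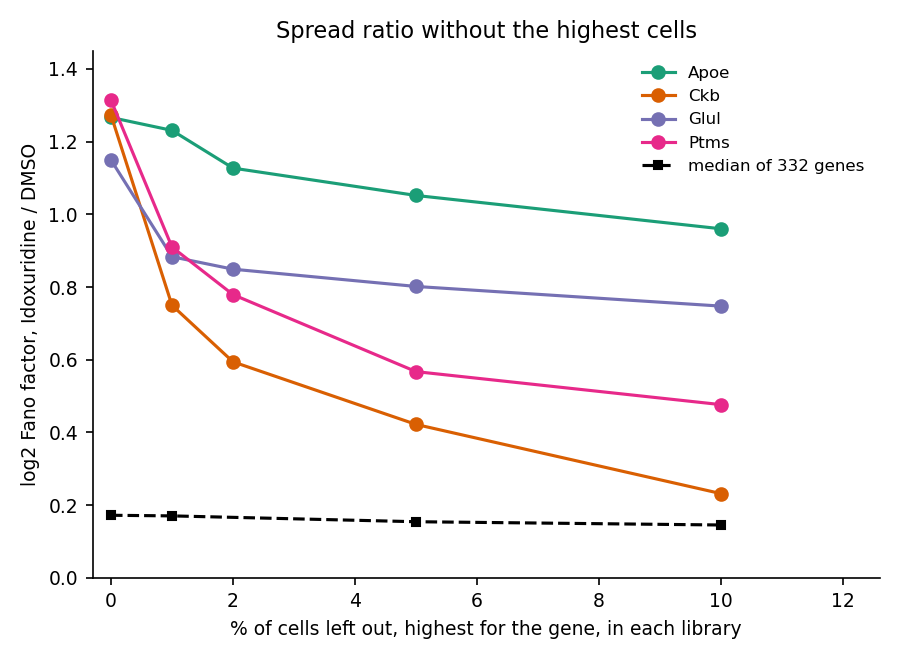
The y axis is the log2 ratio of the Fano factor, Idoxuridine over DMSO, on 1 seeded thinning, and the x axis the percentage of cells, highest for the gene, left out of each library. Apoe stays at 0.96 with 10% left out, whereas Ckb ends at 0.23, close to the median of 332 genes (black squares).

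Cells were called as G1, S or G2M from published lists of cycle genes, in each library apart. The calls thus depend in part on the library, which limits the comparison of phases between the 2 libraries. In DMSO 60.7% were called S and 39.0% G2M, and in Idoxuridine 45.7% and 52.0%. Only 2 DMSO cells and 15 Idoxuridine cells were called G1, too few for a value. Apoe had a similar gain in either phase, with Fano factors of 6.44 and 15.4 in S cells and 6.21 and 14.2 in G2M cells. Ckb did not: among S cells it had Fano factors of 4.62 (DMSO) and 13.1 (Idoxuridine), but among G2M cells of 4.14 and 4.88, a log2 ratio of 0.24. Ptms and Glul lay between these, with log2 ratios of 1.48 and 1.47 in S cells and 0.67 and 0.79 in G2M cells. These differences between phases were not tested.

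**Figure D4:**
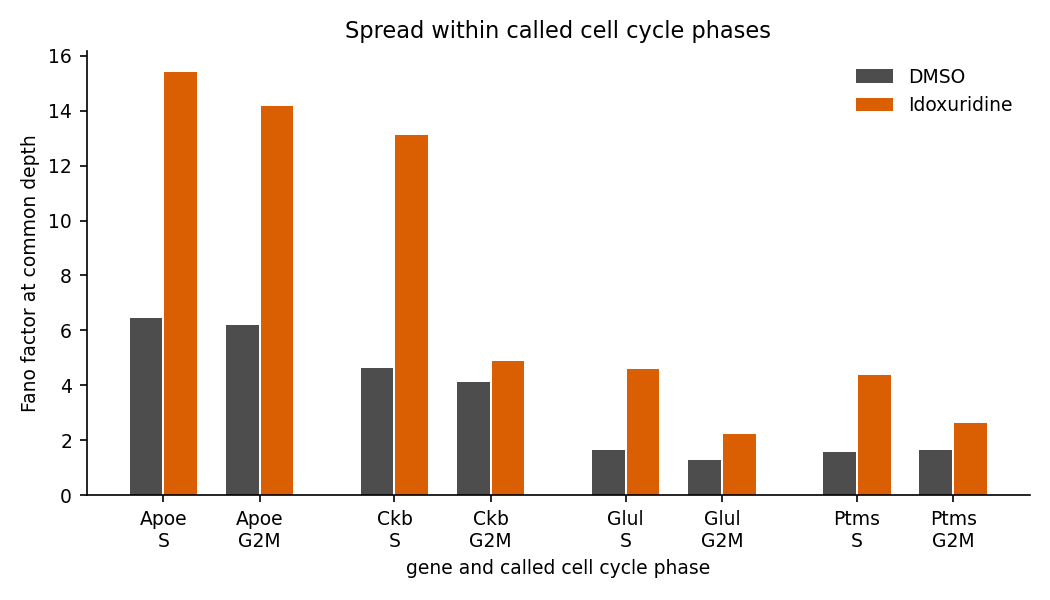
Bars give the Fano factor at the common depth in DMSO (grey) and Idoxuridine (orange) for each gene, among cells called S and among cells called G2M. The orange bar of Ckb is at 13.1 in S cells and 4.88 in G2M cells, whereas those of Apoe are at 15.4 and 14.2.

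Correlations between the 4 genes were weak. Over the 648 Idoxuridine cells, which share 1 library and 1 depth, the highest Spearman rho between 2 of them was 0.18, for Apoe with Ptms (-0.01 in DMSO), followed by 0.14 for Apoe with Ckb (0.02 in DMSO). The other 4 pairs lay between -0.09 and 0.08. Of the 32 cells (5%) highest for each gene, Ckb and Ptms had 4 in common, Apoe and Ptms 3, Glul and Ptms 3, Apoe and Ckb 2, Ckb and Glul 1, and Apoe and Glul 0, where 2 unrelated genes would share 1.58 on average. Together 116 Idoxuridine cells were high for any of the 4, and 105 of them for 1 gene alone, 10 for 2 and 1 for 3. In DMSO, where 38 cells were taken for each gene, 120 of 136 were high for 1 gene alone. For 38 cells unrelated genes would share 1.89 on average, and the pairs shared 0 to 5. The sharing was not tested against these averages.

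Cells highest for Ckb or Ptms were, however, higher in Apoe on average. Apoe averaged 67.4 UMIs in the 32 highest Ckb cells and 46.9 in the others, and 64.5 and 47.1 for Ptms. In DMSO these means were 55.4 and 53.8 for Ckb, and 56.5 and 53.8 for Ptms. The cell with 244 Ckb UMIs had 101 Apoe, 0 Glul and 1 Ptms UMI. The cell with 223 Apoe UMIs had 22 Ckb UMIs, below the Ckb median. The cell with 62 Ptms UMIs had 108 Apoe and 59 Ckb UMIs, both above the median, as were the counts of the next 2 Ptms cells, at 67 and 127 Apoe and 64 and 74 Ckb UMIs. The cell highest for Glul, with 37 UMIs, was near the medians of the other genes, with 54 Apoe, 37 Ckb and 8 Ptms UMIs.

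Cells highest for Apoe and Ckb were also shallower and richer in nuclear RNA. Before thinning, the 32 highest Apoe cells had a median of 32196 UMIs and the other 616 cells 39780. For Ckb the medians were 29144 and 39928, for Glul 33880 and 39878, and for Ptms 38649 and 39667. In DMSO too the highest cells were shallower for Apoe (38200 against 46242) and Ckb (40204 against 46590). The nuclear-retained RNAs, mostly Malat1, took 0.84% of UMIs in the highest Apoe cells and 0.93% in the highest Ckb cells, against 0.47% in the other cells. The values were 0.63% and 0.47% for Ptms, and 0.45% and 0.48% for Glul. The median mitochondrial share was 2.73 to 2.93% in the highest cells and 2.80% in the others. Without the 10% of cells with the most nuclear-retained RNA, the log2 Fano ratio was 1.25 for Apoe, 1.21 for Glul, 0.84 for Ptms and 0.78 for Ckb. Among cells deep enough for 35000 UMIs (592 and 433 cells) it was 1.26 for Apoe, 1.22 for Ptms, 0.85 for Glul and 0.56 for Ckb. The Ckb gain was therefore smaller among the deeper cells, and the part of depth or nuclear RNA in it was not tested beyond these values. No cell highest for Apoe or Ckb, and 1 each for Glul and Ptms, had over 2 times the library's median UMIs, a sign of a possible doublet.

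Genes that followed each member were ranked by Spearman rho over the 648 Idoxuridine cells, among 5904 other genes of at least 0.5 UMI per cell. They were chosen by their Idoxuridine values, so a lower rho in the 764 DMSO cells is in part fixed by the choice. With Apoe, 27 genes (0.457%) reached a rho of 0.2 in size, 16 positive and 11 negative. Grn, which encodes the lysosomal protein progranulin, was highest at 0.29 (0.21 in DMSO). It had 2.74 UMIs per cell in the 162 cells lowest in Apoe, which averaged 21.4 Apoe UMIs, and 4.50 in the 162 highest, which averaged 85.6. Further lysosomal genes among the 8 highest were Lamp1, a membrane protein of lysosomes (rho 0.26, 0.21 in DMSO), the protease gene Ctsa (0.25 and 0.13) and the hexosaminidase gene Hexa (0.23 and 0.21). The metallothionein gene Mt1 (0.28 and 0.14), the aquaporin gene Aqp3 (0.27 and 0.11), Eef1a1 (0.25 in both) and the chaperone gene Hsp90aa1 (0.23 and 0.09) completed the 8. Aqp3 went from 2.83 UMIs in the cells lowest in Apoe to 7.08 in the highest. The 8 lowest included the nuclear transport genes Ranbp1 (-0.27) and Ran (-0.23), lactate dehydrogenase Ldha (-0.22) and the ubiquitin-conjugating enzyme gene Ube2s (-0.22).

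A list of 34 lysosomal genes, added after these followers had been seen, is therefore a description of the same pattern. Of its 24 genes measured, all 24 had a positive rho with Apoe in both libraries, with a median of 0.13 in Idoxuridine and 0.12 in DMSO. Over all 6011 genes measured, 2596 were positive in Idoxuridine and 2839 in DMSO. The list's summed UMIs had a rho of 0.41 with Apoe in Idoxuridine and 0.34 in DMSO, so the relation was there without Idoxuridine as well. The median log2 Fano ratio of the lysosomal genes was 0.17, above the 0.08 over all genes and below the 1.34 of Apoe. None of 27 was 2-fold higher, where 0.492% of all genes were. Of 32 tested in level 4 were higher (Man2b1, Tfeb, Gaa and Psap) and 1 lower, against 18.8% and 4.20% of all genes.

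With Ckb, 44 genes (0.745%) reached 0.2 in size, 31 positive and 13 negative, the most of the 4 genes. The 2 highest, Calcoco2 (rho 0.34, 0.20 in DMSO) and Gabarapl2 (0.34 and 0.18), both encode proteins that act in autophagy. Calcoco2 had 1.46 UMIs per cell in the 162 cells lowest in Ckb, which averaged 20.02 Ckb UMIs, and 4.43 in the 162 highest, which averaged 61.8. Genes of the pluripotent state among the 8 highest were Nanog (0.32 and 0.24) and the Nodal co-receptor gene Tdgf1 (0.30 and 0.32). Khdc3 (0.29 and 0.33) and Dppa5a (0.29 and 0.39) were others. Hsp90aa1 (0.30 and 0.24), also among the 8 highest for Apoe, and Cd9 (0.27 and 0.23) completed the 8. Nanog had 3.80 UMIs in the cells lowest in Ckb and 7.52 in the highest. The centromere protein genes Cenpe (-0.27, -0.07 in DMSO) and Cenpf (-0.25 and -0.06) were at the other end. Cdc20 (-0.23 and -0.12), the activator of the anaphase-promoting complex, was there too. The other genes of the 8 lowest were Nme1, Serpinh1, Peg10, Ckap2 and Sp5, at -0.24 to -0.22 in Idoxuridine.

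The gene lists were measured on the same cells and hold some of these followers, such as Nanog and Dppa5a. They are therefore a description of the same 2 sides of Ckb. The negative rho with G2M genes was shared with Apoe. Of the 20 naive pluripotency genes measured, 18 had a positive rho with Ckb in Idoxuridine, 6 of them of at least 0.2 (Nanog, Dppa5a, Zfp42, Fgf4, Klf2 and Zfp57), and 16 in DMSO. Over all 6011 genes, 2742 were positive with Ckb in Idoxuridine and 3043 in DMSO. The summed list had a rho of 0.40 in Idoxuridine and 0.34 in DMSO. In level the list was lower with Idoxuridine for 9 of 22 genes, among them Klf2 and Spp1, and higher for 1, Dppa3, where 4.20% of all genes were lower and 18.8% higher. Of 53 G2M genes measured, 52 had a negative rho with Ckb in Idoxuridine and 6 reached -0.2. The summed list had a rho of -0.25 with Ckb (-0.12 in DMSO). With Apoe 6 of the 53 were positive, and the summed rho was -0.17 (-0.08 in DMSO). With Ptms 17 were positive (summed rho -0.03) and with Glul 47 (0.11). Over all 6011 genes, 2596 were positive with Apoe, 2612 with Ptms and 3359 with Glul. Among the 32 highest Ckb cells 12.5% were called G2M, against 54.1% of the others, and in DMSO 18.4% against 40.1%. For Apoe the shares were 28.1% and 53.2% in Idoxuridine and 44.7% and 38.7% in DMSO. For Glul they were 34.4% and 52.9% in Idoxuridine and 34.2% and 39.3% in DMSO. For Ptms they were 37.5% and 52.8% in Idoxuridine and 39.5% and 39.0% in DMSO. In Idoxuridine, fewer of the highest cells than of the others were thus called G2M for all 4 genes.

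Glul and Ptms had few followers. With Glul, 2 of the 5904 genes (0.0339%) reached 0.2 in size, Mest at 0.20 (-0.02 in DMSO) and Def6 at -0.21 (-0.07 in DMSO). With counts as sparse as 3 UMIs per cell, no relation is read from them. Mest was itself among the genes of largest spread gain. With Ptms, 4 genes (0.0678%) reached 0.2: Gm10116 at 0.31 (0.14 in DMSO), Capns1, a calpain subunit gene, at 0.21 (0.19), the AP-1 gene Jund at 0.21 (0.01) and the aldose reductase gene Akr1b3 at -0.21 (-0.11). Gm10116 is listed in GENCODE M21 as Ftl1-ps1, a pseudogene of the ferritin light chain, and its counts cannot be told apart with certainty from those of Ftl1, which had a rho of 0.19 (0.17 in DMSO). These correlations are weak.

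**Figure D5:**
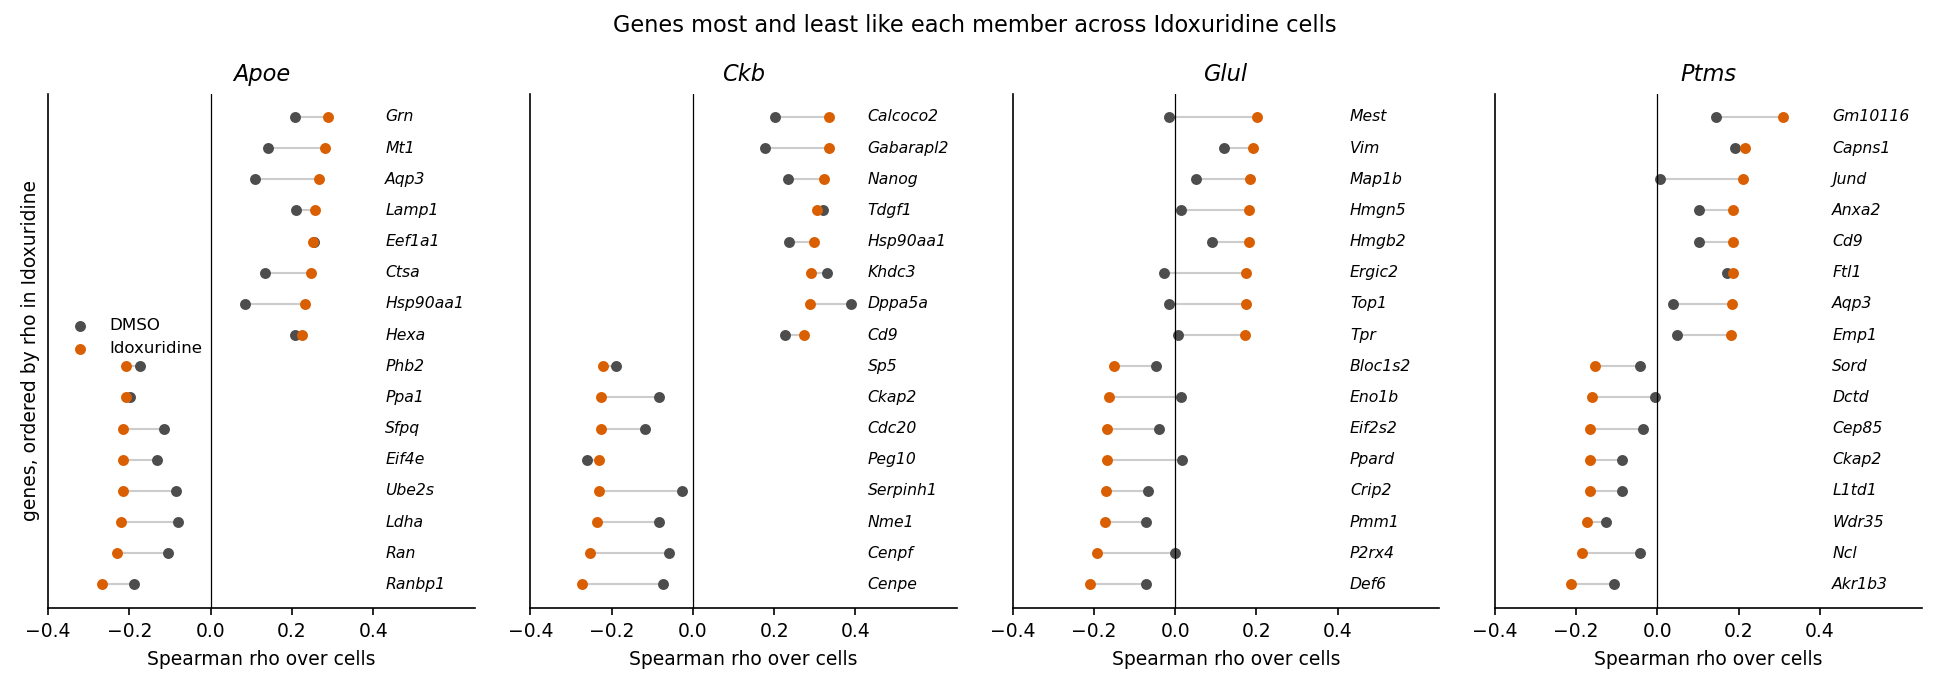
For each of the 4 genes, points give the Spearman rho over 764 DMSO cells (grey) and 648 Idoxuridine cells (orange) with the 8 genes of highest and the 8 of lowest rho in Idoxuridine. For Apoe and Ckb the grey points lie on the same side of 0 as the orange ones, and for Glul 6 of the 16 grey points are on the other side or at 0.

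The highest cells also differed in a few strongly varying genes. In the 32 highest Apoe cells, Aqp3 averaged 15.5 UMIs, with a UMI in all 32, against 3.47 in the other cells, a ratio of 4.47 that was 3.86 without the highest single cell. Gpnmb, a lysosomal membrane glycoprotein gene, averaged 1.22 against 0.13, but 22 of its UMIs came from 1 cell. Phkg1 (4.71, but 2.74 without its highest cell) and Cd74 (4.57 and 2.14) also ranked above Aqp3. In the 32 highest Ckb cells, Lgals3, the gene of the secreted lectin galectin-3, averaged 4.19 UMIs against 0.62, a ratio of 6.81 that was 5.98 without the highest cell. The granin gene Chga averaged 1.25 against 0.23 there, a ratio of 5.35. Fcgrt (5.81, and 5.06 without its highest cell) and Cidea (5.56 and 4.27) ranked above Chga. Lgals3 and Chga were themselves among the 12 genes of similar level with the largest spread gain. In the cells highest for Ptms, Txnip, a thioredoxin-binding protein gene, averaged 2.88 UMIs against 0.97, with a UMI in 25 of 32 cells. Its ratio of 2.95 was 2.42 without the highest cell. Cdkn1c (3.84), Dkk1 (3.80) and Mgat4c (3.69) had larger ratios there. In those highest for Glul, the germ cell gene Dazl averaged 5.22 against 2.07, but 33 of its UMIs came from 1 cell. Its ratio of 2.52 was 2.08 without that cell. In DMSO Dazl was sparse, at 0.05 UMIs per cell in the highest Glul cells and 0.18 in the others, and no direction is read from these counts. Dkk1 (2.87, but 1.12 without its highest cell) and Pmaip1 (2.52 and 2.22) ranked above Dazl. The summed embryonic stem cell markers had a median of 125 UMIs in the highest Apoe cells and 123 in the others, and of 162 and 121 for Ckb. Sums of other cell type markers moved too. The 11 neural and glial markers, mostly Tubb3, had a median of 9.5 UMIs (range 0 to 47) in the highest Ckb cells and 4 (0 to 36) in the others, and of 6.5 and 4 for Ptms, 4.5 and 4 for Apoe, and 3 and 4 for Glul. The 9 trophectoderm markers had a median of 9 UMIs (1 to 31) in the highest Ptms cells and 5 (0 to 34) in the others, and of 5 or 6 for the other 3 genes. In DMSO the neural and glial medians were 3 in the highest and the other cells alike for each gene. Fibroblast medians were 0 and primitive endoderm medians at most 1. The part of these markers in the spread was not tested.

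The relatives and pathway partners of the 4 genes were taken from lists by pathway. With 0.492% of all genes 2-fold higher in spread, a count of 0 in lists this short is not read as a result, and their medians are given beside the 0.08 over all genes. Of the other lipoprotein genes, 8 could be measured for spread, none was 2-fold higher, and their median log2 Fano ratio was 0.20. In level 4 of 13 were higher and 0 lower, against 18.8% and 4.20% of all genes. The higher genes were Apoc1, a neighbour of Apoe in the apolipoprotein cluster (23.1 and 45.1 CPM), and Abcg1, Lrp1 and Lrp8. Npc2, which carries cholesterol out of lysosomes, was the list's only gene with a rho of at least 0.2 with Apoe, at 0.21 (0.24 in DMSO).

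Of the creatine and adenylate kinase genes, none of 7 was 2-fold higher in spread, and the median log2 Fano ratio was 0.08. The nearest to Ckb were Slc6a8, the creatine transporter (Fano factors 1.40 and 2.45, log2 ratio 0.81), and Ckmt1, the mitochondrial creatine kinase (1.34 and 2.21, log2 ratio 0.72). Their rho with Ckb was 0.19 and 0.20 in Idoxuridine, and 0.03 and 0.12 in DMSO. The muscle form Ckm had 5 UMIs without and 136 with Idoxuridine in all cells together, under the minimum of 200. Of 22 other genes of glutamine and glutamate metabolism, none was 2-fold higher in spread, and the median log2 Fano ratio was 0.09. In level 3 of 22 were higher (Glud1, Gclc and Pfas) and 1 lower, Got1. Of 10 genes related to prothymosin and acidic histone-binding proteins, none was 2-fold higher either, and the median was 0.14. Ptma, the gene of prothymosin alpha, was at 6620 and 6409 CPM with a log2 Fano ratio of 0.12 and a rho with Ptms of 0.17. The linker histone gene H1f0 came nearest, at 0.93, and was higher in level too, at 39.9 and 112 CPM.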

How the data were processed

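Per the labels the libraries were 10x Genomics 3′ V2, and the authors deposited raw counts, that is UMIs of each gene in each cell as whole numbers. Cell Ranger 2, Seurat and the build mm10 stand in the submitters' processing notes with no role attached. Annotation release and barcode filter are not given in the sources used here, so every deposited barcode was used, and no doublet caller was run. Groups follow the treatment labels. Members and gene lists were chosen with earlier results of these data known.

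CPM are UMIs summed over cells per 1000000, with exact Poisson and conditional binomial intervals. The common depth is the largest multiple of 500 under the 10th percentile of UMIs per cell (23968), and leaves out 47 DMSO cells (5.80%) and 94 Idoxuridine cells (12.7%). Means and Fano factors are exact expectations of thinning without replacement. Percentiles, correlations and phases (scanpy 1.11.5) use 1 seeded draw. The moments were tested on simulated data. Named genes are the 4 members, the 8 highest and 8 lowest in rho for each, the 5 nearest in DMSO mean, and up to 4 measured genes of each list by Fano ratio or rho. Genes marking the highest cells, those listed by level and single markers were named after their values were seen. Some single genes of the lists are counted in them and not reported here by name. Python 3.11.15, edgeR 4.0.16 (TMM) and DESeq2 1.42.0 (size factors) were used.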

Additional observations from a re-analysis of the deposited data

How the results depend on the processing

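No paired analysis was possible because each group has 1 library. Depth limits the 4 genes unequally: Glul, with about 3 UMIs per cell, gives the least precise spread and correlations, and cells under the common depth, more of them treated, were left out. On raw UMIs, where cell depth adds to the spread of every gene, the log2 Fano ratio was 0.18 for Apoe and 0.39 for Ptms, and that of Ckb turned to -0.090. At 35000 UMIs it was 0.56 for Ckb. Within G2M cells it was 0.24 for Ckb and 0.67 for Ptms, and the G1 cells were too few. Alternatives chosen after seeing the data left out the cells highest for the gene: Ckb was then at 0.59 without 2%, 0.42 without 5% and 0.23 without 10%, and Ptms at 0.57 without 5% and 0.48 without 10%. The other settings for the ratio, 12000 UMIs and leaving out mitochondrial and ribosomal genes, large cells or cells of high mitochondrial or nuclear share among them, moved it by less than 1.5-fold.

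Every level ratio moved beyond counting error with scaling. It was, with TMM and median-of-ratios, -0.36 and -0.24 for Apoe, -0.32 and -0.20 for Ckb, 0.16 and 0.28 for Glul, and 0.053 and 0.17 for Ptms. Without mitochondrial and ribosomal genes in the total it was -0.13 for Apoe and -0.091 for Ckb, and at common depth -0.17 for Apoe. Directions held for all 4. The count of genes past 0.5 log2 in level went from 2383 to 4665 with a minimum of 1 UMI. The count with a 2-fold higher Fano factor went from 36 of 7316 genes to 11 of 5634 at 12000 UMIs. It was 23 of 3645 among genes of at least 1 UMI per cell and 6 of 332 among those of at least 10. With that last minimum the share was larger, at 1.81% against 0.492%. No correlation between the members moved by over 0.1 under 42 alternatives. With a counting-corrected Pearson correlation, 2 of the 8 highest genes were shared for Apoe, 0 for Ckb, 0 for Glul and 2 for Ptms, so the named followers depend on the measure; the cause was not tested.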
